A study of Homo sapiens with 4 samples.

Results

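GM-CSF, IL-3 and IL-5 are the cytokines whose receptors share the common beta chain CSF2RB. They were chosen by name and made up 3 of the 21 distinct proteins measured in the medium of U937 cells, a monocyte-like line from a human leukaemia. The 4 samples, with 1 array each, were medium of empty-vector cells given PBS, of empty-vector cells given cytarabine, and of cells carrying the F1F2 or the F2F3 fragment and given cytarabine. Cytarabine, a chemotherapy drug that stops DNA replication, was given at 10 µM for 72 h. No time is recorded for the PBS sample. The fragments are dominant negative pieces of TIFA, an adaptor protein that leads to NF-kB, and all cells, the vector controls included, had been retrovirally transduced and selected for stable expression. Fragment cells without the drug were not analysed here. The last sample is F2F3 by its own labels, which were followed, although the design text calls it F1F2.

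Each cytokine of this family binds an alpha chain of its own, and the pair then recruits the common beta chain, which signals through JAK2 and STAT5. GM-CSF (gene CSF2) drives the growth and activation of granulocytes and macrophages, IL-3 (gene IL3) acts on early blood progenitors, and IL-5 (gene IL5) supports eosinophils. Activated T cells are a main source of all 3, and myeloid leukaemia cells can respond to GM-CSF and IL-3. In the RefSeq annotation of GRCh38.p14 all 3 genes lie on chromosome 5, with 0 protein-coding genes between IL3 and CSF2 and 5 between CSF2 and IL5. IL13, whose protein was also on the array, follows IL5 with 1 protein-coding gene, RAD50, between them. CSF2RB lies on chromosome 22, and the array held no row for it.

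The RefSeq table of promoters (GRCh38.p14) held CSF2 and IL3, 2 of the 3 genes, and not IL5. The 250 bases before the start site are shown because TIFA is placed upstream of NF-kB in this study and CSF2 is a known NF-kB target. Capitals mark matches, searched on both strands, to GGGNNTTCC or GGANNTTCC, 2 simple forms of the NF-kB motif that can overlap each other on opposite strands and were chosen with these windows in view.
CSF2, chr5:132073539-132073788, plus strand: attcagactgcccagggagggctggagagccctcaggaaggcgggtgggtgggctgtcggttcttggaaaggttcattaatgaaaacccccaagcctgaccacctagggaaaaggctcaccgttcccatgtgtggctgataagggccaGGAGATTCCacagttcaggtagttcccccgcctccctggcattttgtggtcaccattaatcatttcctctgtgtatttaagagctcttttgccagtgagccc
IL3, chr5:132060405-132060654, plus strand: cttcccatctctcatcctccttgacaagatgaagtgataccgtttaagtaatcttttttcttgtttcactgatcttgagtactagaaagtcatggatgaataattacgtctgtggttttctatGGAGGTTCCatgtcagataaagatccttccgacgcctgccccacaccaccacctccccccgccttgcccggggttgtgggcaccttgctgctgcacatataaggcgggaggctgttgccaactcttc
CSF2 held 1 match, GGAGATTCC, starting 102 bases before the start site. IL3 held 1 match, GGAGGTTCC, starting 127 bases before the start site. Both are to GGANNTTCC on the plus strand. A looser form, starting with GGG and ending with CC with any bases between, was tried first and set aside. It matched most promoter windows. It also matched the CSF2 window, at ggtagttccc read on the opposite strand, which is not in capitals here. Of all 35116 promoter windows of this length, 5.78% held GGGNNTTCC, 3.84% held GGANNTTCC and 9.34% held either. A match describes letters only, and no binding was measured here. The capitals therefore do not tell which site of the CSF2 window, marked or unmarked, is used by NF-kB.

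All intensities are relative to the positive control of the same array, which reads 1, after subtraction of the negative control, which reads 0. The amount of light per protein differs between antibodies, so levels were compared between samples and not between proteins. The ranges of other dim rows serve below only as a gauge of how far low signals differed between arrays. The ranks of differences by size given below also depend on the brightness of each antibody, and only describe these arrays. The background of each array was read from the negative control and from the dimmest rows, IL-13, IL-15 and G-CSF, which stayed under 0.0099 (the floor, the 25th percentile of all protein values) in every sample. Any value above the floor therefore lies above these rows by their choice. These background rows lay between -0.00519 and -0.000907 in the vector sample with PBS. They lay between -0.00337 and -0.00222 in the vector sample with cytarabine. They ranged from -0.0156 to 0.000925 with F1F2 and from 0.00273 to 0.0098 with F2F3, so the background was lowest with F1F2 and highest with F2F3. Summed over the 21 proteins, the arrays read between 3.67 and 4.35. The members together supplied 3.30% of that sum with vector and PBS, 2.49% with vector and cytarabine, 5.73% with F1F2 and 5.45% with F2F3. These shares mix signals of different antibodies. From vector with cytarabine to F1F2 and F2F3, IL-5 went from 0.0123 to 0.134 and 0.110. GM-CSF went from 0.0634 to 0.0497 and 0.0503, and IL-3 from 0.0328 to 0.0409 and 0.0392. Every value is a single measurement with no replicate, and no correction for cell number at collection is recorded, so fewer cells and less release per cell cannot be told apart.

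**Figure D1:**
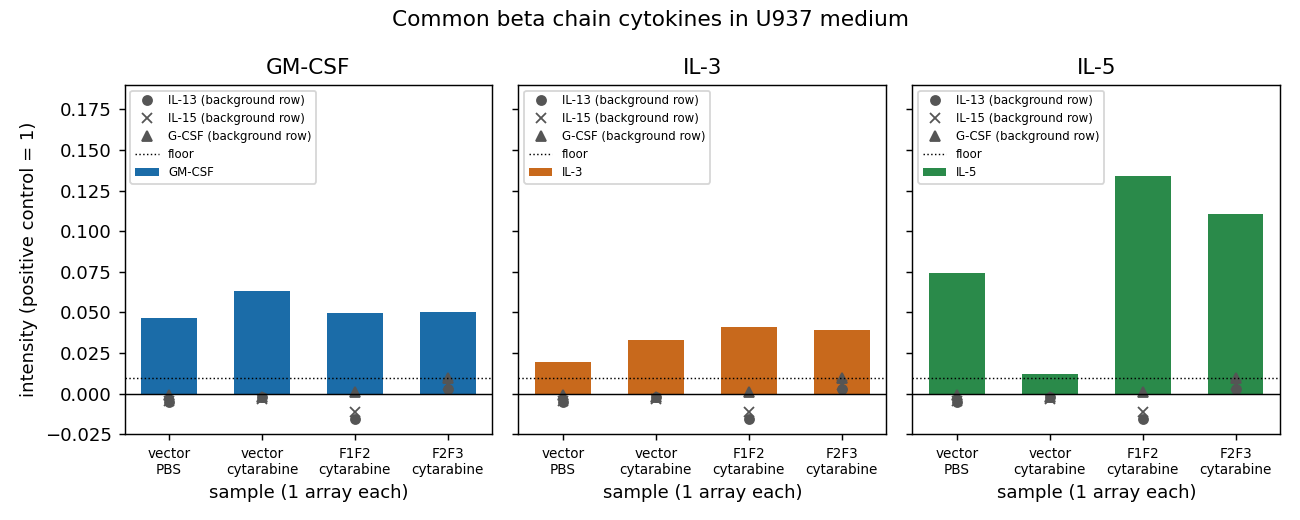
Bars give the intensity of GM-CSF, IL-3 and IL-5 (positive control = 1) in each of the 4 samples, and grey symbols give the background rows IL-13, IL-15 and G-CSF on the same array, with the floor dotted. All 12 bars lie above the floor, and IL-5 in the vector sample with cytarabine (0.0123) is the lowest bar. The background rows stayed under the floor in every sample, so their place below the bars follows from how they were chosen.

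As deposited, GM-CSF varied least of the 3 cytokines relative to its own highest value. Its intensity was 0.0468 in the vector sample with PBS, 0.0634 in the vector sample with cytarabine, 0.0497 with F1F2 and 0.0503 with F2F3. The vector sample with cytarabine was thus the highest and the other 3 samples lay close together. Every GM-CSF value was above the highest background row of its array, by 0.0405 (F2F3) to 0.0656 (vector with cytarabine). Between its lowest and highest sample GM-CSF differed by 0.0166, or 26.2% of its highest value. Of the 7 other proteins that stayed under 0.05 in every sample, 6 had a larger range than this. When arrays were scaled to a common median of the 21 proteins, the range of GM-CSF grew to 0.0405, or 50.2% of its highest value (IL-3 then had 44.3%), and none of these 7 then had a larger one. That median is the value of a single row on each array, IFN-gamma or IL-7, so the scaling rests on low signals.

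IL-3 was lowest without the drug. Its intensity was 0.0193 with vector and PBS, 0.0328 with vector and cytarabine, 0.0409 with F1F2 and 0.0392 with F2F3. All 3 samples with cytarabine were above the PBS sample, and both fragment samples were above vector with cytarabine as deposited. The range of 0.0215 was 52.7% of its highest value. It was exceeded by 1 of the 7 dim proteins, MCP-3 (CCL7), whose range was 0.0339. With arrays scaled to a common median the range of IL-3 was 0.0185, and 3 of the 7 exceeded it. In the PBS sample IL-3 was 1.24 times the size of the most negative protein value on any array, 0.0156.

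IL-5 varied most relative to its own highest value. Its intensity was 0.0741 with vector and PBS, 0.0123 with vector and cytarabine, 0.134 with F1F2 and 0.110 with F2F3. The vector sample with cytarabine was the lowest and both fragment samples were above the PBS sample as deposited. With arrays scaled to a common median, F2F3 (0.0883) was no longer above PBS (0.0891). The range of 0.121 was 90.8% of its highest value. The low value in the vector sample with cytarabine exceeded the highest background row of its own array by 0.0145. It was, however, only 0.79 times the size of the most negative protein value on any array (IL-13 with F1F2), so any fold taken against it rests on a signal near the noise around 0.

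The first comparison set vector cells given cytarabine beside vector cells given PBS. With no time recorded for the PBS sample, a difference in time could not be told apart from the drug. Of the 3 cytokines, 1 was called higher (IL-3), beside 17.6% of all 17 proteins with a ratio, and 1 was called lower (IL-5), beside 23.5%. GM-CSF did not reach the 1.5-fold threshold used for calls. Shares of 3 members move in steps too coarse to set them apart from these backgrounds. GM-CSF was 1.36-fold higher with the drug, a difference of 0.0166, 12th by size among the 21 proteins. IL-3 was 1.69-fold higher, a difference of 0.0134, 14th by size and next to that of IL-2 (0.0135). The IL-3 call ended with a pseudocount of 0.05 (1.19-fold). IL-5 was 6.02-fold lower, a difference of -0.0618, 7th by size. Its log2 ratio of -2.59 was the lowest of the 17 as computed. Its place is not settled, because the MCP-3 ratio is an upper bound (log2 ratio at most -0.12). That bound is set by a value with cytarabine of 0.00313, under the floor. With a pseudocount of 0.05 the IL-5 fold was 1.99. The median log2 ratio of the 3 cytokines was 0.44, which is that of GM-CSF, beside 0.26 over all 17.

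The next comparisons set each TIFA fragment beside vector under the same drug. Both use the same vector array, so they are not independent. With F1F2, 1 of the 3 cytokines was called higher (IL-5), beside 22.2% of 18 proteins. With F2F3 it was again IL-5 alone, beside 33.3% of 18 proteins. GM-CSF had a log2 ratio of -0.35 for F1F2 over vector and -0.33 for F2F3 over vector. For IL-3 the log2 ratios were 0.32 and 0.26 in that order. The F1F2 medium held 10.9 times the IL-5 signal of the vector medium, a difference of 0.121. For F2F3 it was 8.97 times, a difference of 0.0981. Its log2 ratios were 3.44 and 3.17. For neither fragment is its place among the 18 proteins settled, because the MCP-3 ratio is a lower bound. That ratio is at least 2.15-fold with F1F2 and at least 3.74-fold with F2F3, set by a vector value of 0.00313, under the floor. The median log2 ratio of the 3 cytokines was 0.32 with F1F2 and 0.26 with F2F3, beside -0.19 and -0.082 over all 18 proteins. Both medians are the ratio of IL-3.

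**Figure D2:**
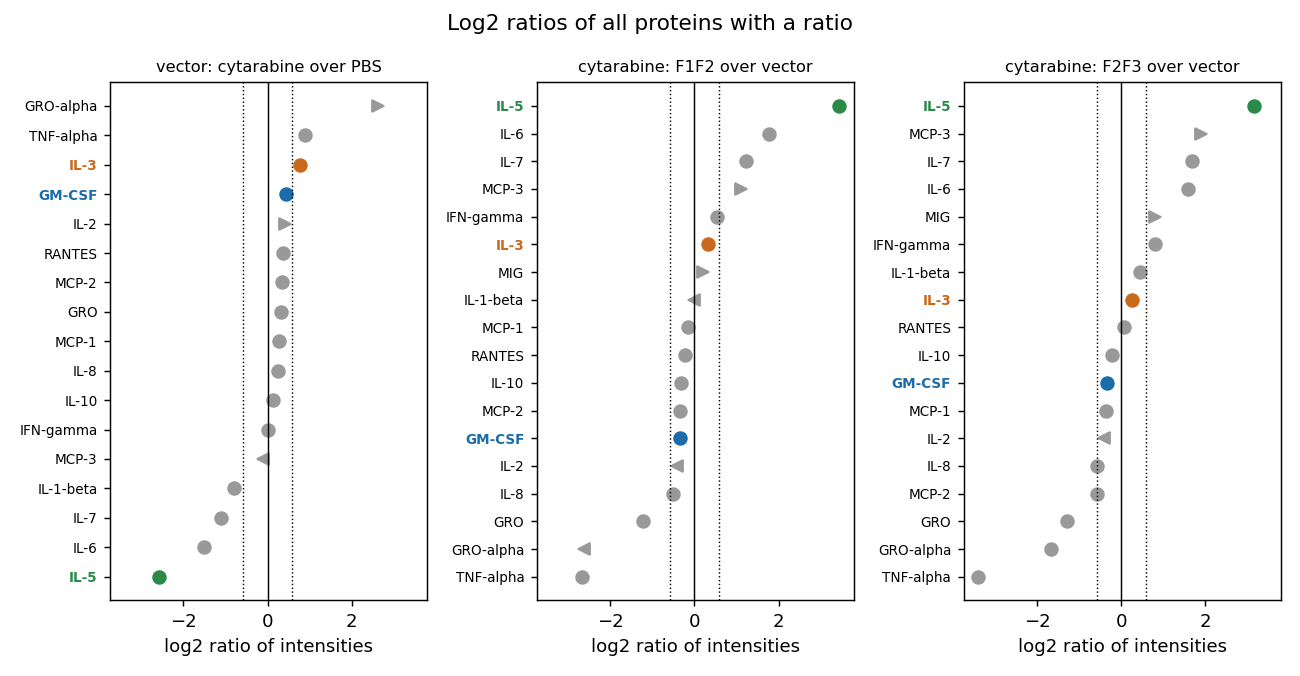
Each panel gives the log2 ratio of intensities (horizontal axis) of every protein with a ratio, sorted, with the 3 cytokines in colour, dotted lines at 1.5-fold, and triangles for ratios that are bounds because 1 value was under the floor. IL-5 is the lowest point of 17 for cytarabine over PBS (-2.59), where the triangle of MCP-3 is an upper bound. IL-5 stands at 3.44 for F1F2 and 3.17 for F2F3 over vector, where the triangle of MCP-3 is a lower bound. GM-CSF and IL-3 lie between -0.35 and 0.76.

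The fold of IL-5 depended on how values near 0 were treated, though its call did not. With a floor of 0.0156, the size of the most negative value, the IL-5 fold over vector was at least 8.58 for F1F2 and at least 7.09 for F2F3. With a pseudocount of 0.05 the folds were 2.95 and 2.57. After subtraction of the mean of the background rows of each array they were 9.53 and 6.99.

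GM-CSF and IL-3 depended on the scaling between arrays. Scaling to the same median moved the 3 cytokines' log2 ratios of F1F2 over vector by -0.53 and those of F2F3 over vector by -0.67. The same total moved them by 0.15 and 0.25. The median of each array is the value of a single row with a low signal. It was IFN-gamma for vector with cytarabine (0.0328) and F1F2 (0.0474), and IL-7 for vector with PBS (0.0347) and F2F3 (0.0523). Results under median scaling therefore rest on those rows, and IL-7 was itself called higher with F2F3. With the same median, GM-CSF was called lower with F1F2 (1.84-fold) and with F2F3 (2.01-fold), and the log2 ratio of IL-3 turned to -0.21 for F1F2 and to -0.41 for F2F3. That scaling also changed the background, from 4 proteins higher and 3 lower to 4 higher and 10 lower with F1F2, and from 6 higher and 3 lower to 4 higher and 10 lower with F2F3. After subtraction of the background rows, IL-3 with F2F3 was at a log2 ratio of -0.093, and 4 proteins were higher and 5 lower with F2F3. The direction of IL-3 with the fragments was therefore not settled by these arrays.

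A factor common to all rows of an array cancels when members' ratios are set against each other, but the treatment of values near 0 does not. With F1F2 over vector, the log2 ratio of IL-5 exceeded that of GM-CSF by 3.79 and that of IL-3 by 3.12. With F2F3 the excess was 3.50 over GM-CSF and 2.91 over IL-3. With cytarabine over PBS in vector cells the log2 ratio of IL-5 was below that of GM-CSF (difference -3.03) and below that of IL-3 (difference -3.35). The ratios of IL-3 and GM-CSF differed by 0.32 with cytarabine, 0.67 with F1F2 and 0.59 with F2F3. With a pseudocount of 0.05 the gaps of IL-5 to GM-CSF and IL-3 shrank to 1.75 and 1.43 with F1F2, to 1.54 and 1.26 with F2F3, and to -1.22 and -1.25 with cytarabine over PBS. Those between IL-3 and GM-CSF shrank to 0.027 with cytarabine, 0.32 with F1F2 and 0.29 with F2F3. The low IL-5 value of 0.0123 enters every gap of IL-5.

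Between the fragments, none of the 3 cytokines was called, beside 17.6% of 17 proteins called in either direction. GM-CSF was 0.0497 with F1F2 and 0.0503 with F2F3. IL-3 was 1.04-fold higher with F1F2, a difference of 0.00162. IL-5 was 1.21-fold higher with F1F2, a difference of 0.0233. These single arrays give no interval, and the values do not show that the fragments act alike. Directions between the fragments turned for GM-CSF with arrays scaled to the same median (log2 ratio 0.12 against -0.018 as deposited) and after subtraction of the background rows (0.40), and for IL-3 with the same total (-0.035 against 0.058).

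Other growth factors and lymphocyte cytokines of the array were set beside these values. IL-13, a type 2 cytokine whose gene neighbours IL5, ranged from -0.0156 to 0.00273 and had a signal under the floor in all samples, so it had no ratio. G-CSF, the granulocyte growth factor, ranged from -0.00231 to 0.0098 and had none either. Of the cytokines that signal through the common gamma chain, IL-15 stayed under the floor, IL-2 lay between -0.00462 and 0.0131, and IL-7, which supports lymphocyte precursors, was called in 3 comparisons. IL-7 read 0.0347 with vector and PBS, 0.0162 with vector and cytarabine, 0.0377 with F1F2 and 0.0523 with F2F3. It was 2.15-fold lower with cytarabine than with PBS, and 2.33-fold and 3.23-fold higher with F1F2 and F2F3 than with vector. IFN-gamma, a product of T and NK cells, read 0.0328 in both vector samples, 0.0474 with F1F2 and 0.0568 with F2F3. IL-13 is 1 of the rows used here as background, so its low signal is no separate reading. Of the products of monocytic cells, IL-8 (0.456 to 0.677), MCP-1 (0.564 to 0.730) and TNF-alpha (0.0824 to 0.871) were present in every sample, whereas IL-1-beta ranged from -0.00153 to 0.0174.

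The pattern of each cytokine over the 4 samples was compared with that of the 14 other proteins whose mean reached the floor, each row divided by its own mean. With 4 samples this is a description. MCP-2 (CCL8), a monocyte attractant, was nearest to GM-CSF, with a mean absolute difference of 0.0647, and IL-10, an anti-inflammatory cytokine, was next (0.068). IL-3 had no row as near. IFN-gamma differed by 0.17 and RANTES (CCL5) by 0.177, and GM-CSF came 4th with 0.26. IL-6, an inflammatory cytokine, was nearest to IL-5 (0.227), followed by IL-7 (0.274). Neither GM-CSF nor IL-3 was among the 4 rows nearest to IL-5. Relative to its own mean, IL-5 stood at 0.149 in the vector sample with cytarabine, IL-6 at 0.39 and IL-7 at 0.459, and all 3 were lowest there. MCP-3, the 4th nearest row to IL-5, was also lowest there (0.173). So were G-CSF, under the floor in all samples, and narrowly IFN-gamma (0.772, beside 0.774 with PBS). Whether these rows share an error of that array was not tested.

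**Figure D3:**
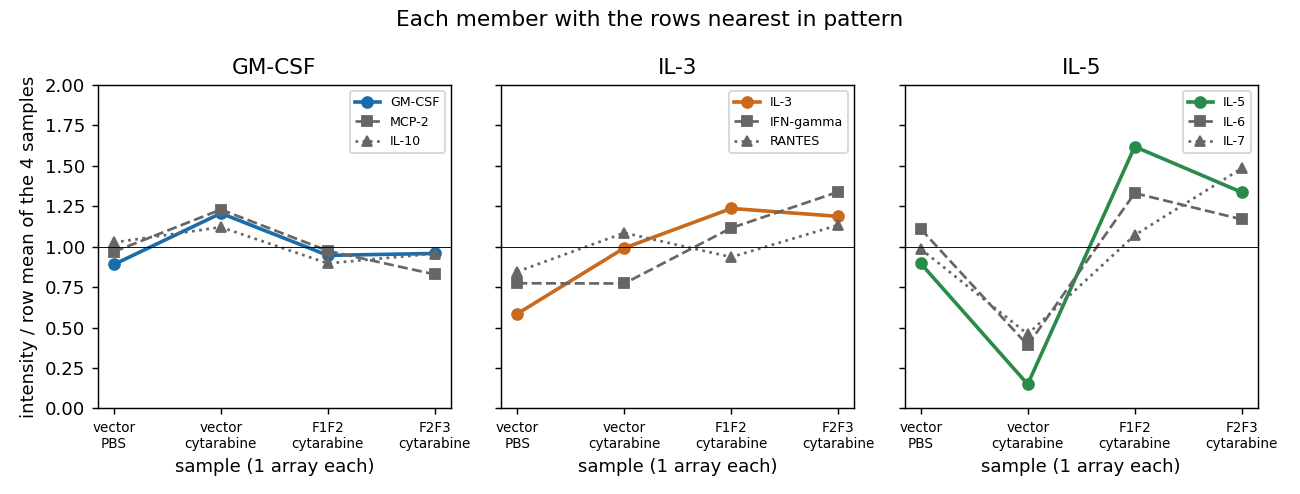
Each panel gives 1 cytokine (coloured line) with the 2 proteins nearest to it in pattern (grey), as intensity divided by the row's mean over the 4 samples. GM-CSF, MCP-2 and IL-10 are all highest in the vector sample with cytarabine, whereas IL-5, IL-6 and IL-7 are all lowest there (0.149, 0.39 and 0.459).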

How the data were processed

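Conditioned medium of U937 cells was profiled on a biotin-labelled protein array, per the labels, with 1 array for each of 4 samples. The deposited table gives intensities for 23 proteins and 2 controls. On each array the authors' intensities put the negative control at 0 and the positive control at 1. As 13 of 92 protein values are below 0, the intensities were read as linear, background-subtracted signals relative to the positive control. The array product, scanner and spot averaging are not given in the sources used. An array has no read depth, and 1 array per group limits the precision.

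The members and lists were chosen with earlier results of these data known, and the members are named whatever their values. Rows of other cytokines were named for their role, and 2 rows per member for likeness of pattern. Rows TNF-beta and TGF-beta are identical and were left out, leaving 21 proteins. Log2 ratios were taken as deposited, with lower values set to a floor, the 25th percentile over all protein rows, and a ratio of 1.5-fold was called. No test was possible. The code for ratios was checked and tested on simulated data. Alternatives were other scaling, thresholds, floors, a pseudocount and subtraction of dim rows, and the members' range under median scaling was added once the data had been seen. Software was Python 3.11.15, pandas 2.3.3, NumPy 2.4.6 and matplotlib 3.10.9.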

Additional observations from a re-analysis of the deposited data

How the results depend on the processing

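No paired analysis was possible because each group is 1 array. IL-5 kept its direction and its side of the threshold in every comparison under all 8 alternatives: its log2 ratio ranged from -2.62 to -0.99 for cytarabine over PBS, from 1.56 to 3.59 for F1F2 over vector, from 1.36 to 3.41 for F2F3 over vector, and from 0.18 to 0.45 for F1F2 over F2F3. The other thresholds enter no ratio and could change only the call. The removal of the floor could not change the IL-5 ratio, because every IL-5 value was above the floor. Every comparison with vector under cytarabine rests on the single IL-5 value of 0.0123.

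The IL-3 call with cytarabine over PBS (log2 ratio 0.76) ended at a 2-fold threshold and with a pseudocount of 0.05 (0.26). The IL-3 ratio to vector turned with the same median to -0.21 (F1F2) and -0.41 (F2F3), and with the background rows subtracted to -0.093 (F2F3). Between the fragments it turned to -0.035 with the same total. At the lower threshold tried GM-CSF was called with cytarabine over PBS (0.44), with F1F2 (-0.35) and with F2F3 (-0.33). With the same median it was called with F1F2 (-0.88) and F2F3 (-1.01), and between the fragments it turned to 0.12, as it did to 0.40 with the background rows subtracted.

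The calls over all proteins for cytarabine over PBS, 7 as deposited, were 4 at a 2-fold threshold, 11 at the lower one and 4 with a pseudocount of 0.05. With F1F2 they went from 7 to 14 with the same median and to 12 at the lower one. With F2F3 they went from 9 to 14 with the same median and to 15 at the lower one. Between the fragments they went from 3 to 0 at 2-fold and to 6 at the lower one, and from 1 higher and 2 lower to 1 and 1 with the same median and to 2 and 0 with the background rows subtracted. These changes follow from the settings themselves, which were applied to the same values. Scaling to the same median, for instance, shifted log2 ratios to vector by -0.53 with F1F2 and by -0.67 with F2F3. Which setting lies nearest to the true levels was not tested.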
